A study of Mus musculus with 14 samples.

Results

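The 8 genes described here, B2m, H2-K1, H2-D1, Tap1, Tapbp, Psmb8, Psmb9 and Psmb10, encode parts of the MHC class I presentation pathway. They were chosen by symbol from a list drawn up with earlier results of these data known, so their levels and differences are given as a description and without a test. They are 8 of 18194 genes that had a probe set of their own on the array. Expression was measured with Affymetrix arrays in mouse embryonic stem cells (ESC) and in embryoid bodies (EB), the aggregates in which such cells differentiate. There were 5 arrays of TKO EB (lines 2-55-2, 14-14-4, 7-4-1, Dutch and Ta1-12), 3 of WT EB (B21, J1 and R1), 3 of TKO ESC (7-4-1, Dutch and Ta1-12) and 3 of WT ESC (B21, J1 and R1). WT is wild type. TKO is not spelled out in the labels and was read as loss of all 3 Rb family genes (Rb1, Rbl1, Rbl2), since the title of the series speaks of that family. The sources used here give neither alleles nor strains nor the time of EB culture. Each array of a group is a different line, so the spread between replicates is that between lines.

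Class I molecules carry peptides of a cell's own proteins to its surface, where cytotoxic T cells inspect them. A polymorphic heavy chain (H2-K1 or H2-D1 in many mouse strains) folds with the invariant light chain beta-2 microglobulin, the product of B2m. Peptides are cut by the proteasome, whose catalytic subunits can be replaced by Psmb8, Psmb9 and Psmb10 to form the immunoproteasome. They enter the endoplasmic reticulum through the transporter of Tap1 and Tap2, and tapasin (Tapbp) helps to load them. Interferons raise the expression of these genes, and embryonic stem cells are known for low surface class I.

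Upstream DNA of B2m, H2-K1, H2-D1, Tap1 and Psmb9 is shown first, the light and heavy chain genes because their promoters are known for shared elements, and Tap1 and Psmb9 because they share the stretch between them. The sequences are from RefSeq, build GRCm38.p6, which is the C57BL/6J genome and may differ from these lines. Each runs 5′ to 3′ in the direction of the named gene. Capitals mark matches on either strand to a strict form of the interferon-stimulated response element (GAAA, any 2 bases, GAAA), TGACG (core of the X2 box), CCAAT (the Y box, also read as ATTGG) or TTCNNNGAA (a STAT site, of which none fell in these stretches). A match is a string of letters and not a shown binding site. H2-K1 (chr17:34000348-34000597, minus strand) and H2-D1 (chr17:35262844-35263093, plus strand) had 91.0% identical bases over 177 columns of a local alignment. The H2-K1 stretch precedes the start used in the promoter table and lies inside the wider span that RefSeq gives for the gene.
B2m, chr2:122147437-122147686, plus strand: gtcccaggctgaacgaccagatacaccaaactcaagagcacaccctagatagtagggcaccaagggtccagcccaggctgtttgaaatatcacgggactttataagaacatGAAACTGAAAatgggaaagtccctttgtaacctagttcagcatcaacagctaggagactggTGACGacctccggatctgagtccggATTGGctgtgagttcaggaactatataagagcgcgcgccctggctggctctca
H2-K1: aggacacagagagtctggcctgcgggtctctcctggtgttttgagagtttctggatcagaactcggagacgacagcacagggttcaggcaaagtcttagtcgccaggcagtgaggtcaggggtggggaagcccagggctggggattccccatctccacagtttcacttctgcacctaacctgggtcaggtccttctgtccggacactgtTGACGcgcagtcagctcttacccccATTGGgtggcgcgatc
H2-D1: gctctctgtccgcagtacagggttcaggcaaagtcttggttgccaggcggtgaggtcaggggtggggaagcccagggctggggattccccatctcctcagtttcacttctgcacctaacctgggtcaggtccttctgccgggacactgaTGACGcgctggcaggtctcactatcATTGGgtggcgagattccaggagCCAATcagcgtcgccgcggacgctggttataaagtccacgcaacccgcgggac
Between the starts of Tap1 and Psmb9, which run in opposite directions, lie 225 bases, so a single stretch (chr17:34187331-34187555, plus strand, in the direction of Tap1) lies upstream of both.
Tap1-Psmb9: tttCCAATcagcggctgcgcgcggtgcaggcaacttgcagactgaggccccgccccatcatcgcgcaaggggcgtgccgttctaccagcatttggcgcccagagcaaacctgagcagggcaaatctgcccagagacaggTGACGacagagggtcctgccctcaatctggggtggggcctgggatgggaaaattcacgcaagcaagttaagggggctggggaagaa

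Over windows around the RefSeq start (250 bases before it and 50 after), TGACG was found in 5 of 8 members (B2m, H2-K1, H2-D1, Tap1 and Psmb9), against 20.8% of 32851 promoter windows in the table. CCAAT was found in 6 of 8 members, the same genes and Tapbp, against 37.4% of all windows. The windows of Tap1 and Psmb9 overlap, so these are not independent matches. The strict interferon element was found only in B2m among the 8, against 3.44% of all windows, and TTCNNNGAA only in Psmb8, against 8.3% of all windows. Looser forms of the interferon element were not searched, so nothing is shown of its absence elsewhere. No match to any of the 4 patterns lay in the window of Psmb10. By neighbouring genes in the RefSeq table, 6 members lie on chromosome 17 in the mouse MHC, B2m lies on chromosome 2 and Psmb10 on chromosome 8.

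The array medians lay between 83.2 and 107.9 intensity units, and no pair of arrays was identical. Values below an intensity of 32 are treated as a floor, and log2 differences are of log2(intensity) with that floor. The pocket protein gene Rbl1 had 31.7, 15.9, 38.3, 377.1 and 1095.9 in TKO EB 2-55-2, 14-14-4, 7-4-1, Dutch and Ta1-12, where the WT EB had 586.3 (B21), 1089.6 (J1) and 493.0 (R1). It had 24.5, 250.3 and 492.5 in TKO ESC 7-4-1, Dutch and Ta1-12, and 693.8, 461.6 and 355.6 in WT ESC B21, J1 and R1. The libraries labelled TKO Ta1-12 thus had WT levels of Rbl1, and whether its probes lie in a deleted part is not stated. Values are therefore also given without line Ta1-12. Line Dutch lay under the WT and above the remaining TKO lines at both stages, and leaving out Ta1-12 does not address this. Rb1 (115.9 to 912.8 in TKO, 138.0 to 1018.4 in WT) and Rbl2 (296.8 to 1098.7 in TKO, 411.1 to 1726.9 in WT) overlapped between genotypes.

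The light chain gene B2m had more signal in EB than in ESC in both genotypes. Its intensity was 6509.6, 7575.3, 6150.4, 4127.4 and 11780.7 in TKO EB 2-55-2, 14-14-4, 7-4-1, Dutch and Ta1-12, and 904.3, 1121.9 and 850.5 in TKO ESC 7-4-1, Dutch and Ta1-12. In WT cells it was 11258.2, 8815.2 and 11848.2 in EB and 1338.7, 2131.7 and 3349.6 in ESC of B21, J1 and R1. The EB and ESC values did not overlap in either genotype. The EB minus ESC log2 difference was 2.84 ± 0.31 in TKO (SE from limma, n = 5 and 3), a 7.16-fold difference, and 2.31 ± 0.35 in WT (n = 3 and 3), a 4.97-fold difference. All 6 lines measured at both stages were higher as EB, by 2.77 (7-4-1), 1.88 (Dutch), 3.79 (Ta1-12), 3.07 (B21), 2.05 (J1) and 1.82 (R1) on the log2 scale. Without line Ta1-12 the TKO difference was 2.56. The other B2m probe set gave 2.99 ± 0.33 in TKO and 2.45 ± 0.37 in WT.

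Between genotypes, B2m ran lower in TKO than in WT at both stages, with log2 differences of -0.63 ± 0.31 in EB and -1.16 ± 0.35 in ESC. The EB values overlapped, since TKO EB Ta1-12 lay among the WT EB, and the other 4 TKO EB lay under all 3 WT EB. The ESC values did not overlap, with TKO ESC at 850.5 to 1121.9 and WT ESC at 1338.7 to 3349.6. The groups thus ranked WT EB, TKO EB, WT ESC and TKO ESC by mean, and of these neighbours only WT EB and TKO EB overlapped.

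**Figure D1:**
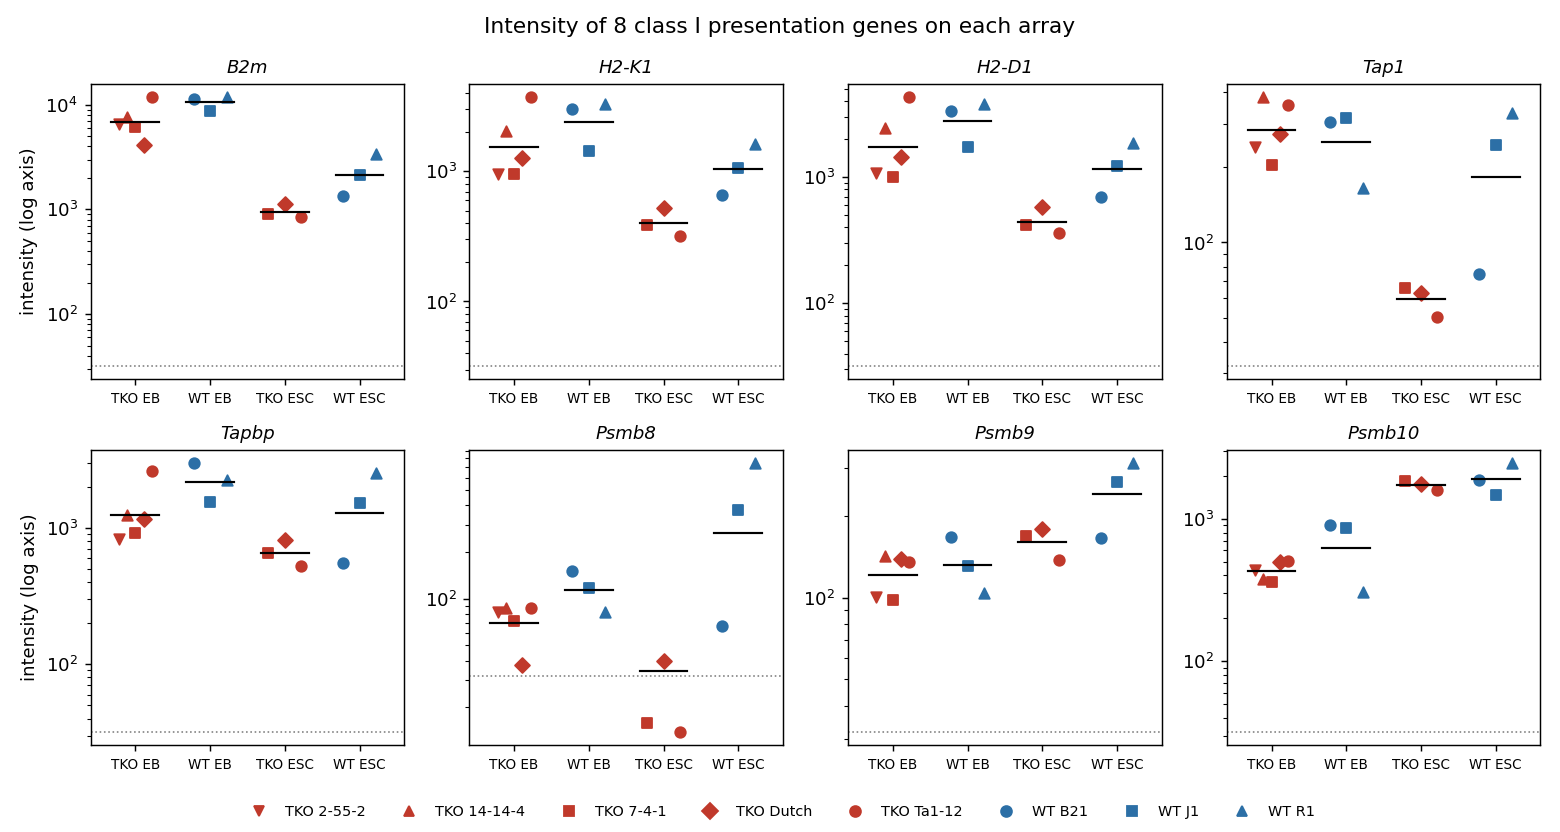
Intensity of the probe set standing for each of the 8 genes on each of the 14 arrays (log axis), by group, with 1 symbol per line, red for TKO and blue for WT; the bar is the group's geometric mean after the floor and the dotted line is the floor of 32. B2m lies at 4127.4 and above in every EB and at 3349.6 and below in every ESC, while Psmb10 lies at 903.9 and below in every EB and at 1471.8 and above in every ESC.

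The heavy chain gene H2-D1 followed B2m at a smaller size. The probe set with the highest mean, 1451784_x_at, had 1073.8, 2443.0, 994.0, 1448.3 and 4302.8 in TKO EB 2-55-2, 14-14-4, 7-4-1, Dutch and Ta1-12, and 416.7, 579.9 and 358.5 in TKO ESC 7-4-1, Dutch and Ta1-12. WT EB had 3310.9, 1722.7 and 3804.7, and WT ESC had 698.1, 1216.9 and 1874.3, in B21, J1 and R1. The stages were apart in TKO and overlapped in WT, where ESC R1 exceeded EB J1. EB exceeded ESC on the log2 scale by 1.98 ± 0.48 in TKO and 1.26 ± 0.53 in WT, and each of the 6 lines was higher as EB, from 0.50 (J1) to 3.58 (Ta1-12). Without line Ta1-12 the TKO difference was 1.50. TKO minus WT was -0.68 ± 0.48 in EB, where the groups overlapped, and -1.40 ± 0.53 in ESC, where they did not.

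H2-K1 was read by 4 probe sets that disagreed. On 1451931_x_at, which had the highest mean, it had 951.5, 2034.5, 950.2, 1264.3 and 3722.8 in TKO EB 2-55-2, 14-14-4, 7-4-1, Dutch and Ta1-12, and 387.5, 522.0 and 318.0 in TKO ESC 7-4-1, Dutch and Ta1-12. WT EB had 2996.5, 1429.5 and 3283.3 and WT ESC had 662.8, 1058.2 and 1620.3 in B21, J1 and R1. EB minus ESC log2 differences were 1.94 ± 0.46 in TKO and 1.21 ± 0.51 in WT, close to those of H2-D1. On 1425336_x_at they were 0.59 ± 0.43 and 0.29 ± 0.48, on 1427746_x_at 0.50 ± 0.46 and 0.21 ± 0.52, and on 1450534_x_at 0.24 ± 0.28 and 0.12 ± 0.31 (errors from the fit over all probe sets). On 1425336_x_at, J1 and R1 were lower as EB (-0.43 and -0.46), Dutch and 7-4-1 were near 0 (-0.07 and 0.03), and B21 and Ta1-12 were higher (1.76 and 2.02). The size of the H2-K1 difference therefore depends on the probe set. All 4 of these are of the x_at kind, whose probes can bind RNA of several similar genes, as are 3 of the 4 usable H2-D1 probe sets. Signal of H2-K1, H2-D1 and other class I heavy chains cannot be told apart here, nor can alleles of different lines.

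The only H2-D1 probe set above the filter that is not of this kind, 1426324_at, was dim and went the other way in WT. It had 74.1 to 99.8 in 4 of the TKO EB and 65.4 in Dutch, and 45.7 to 75.5 in TKO ESC, while WT EB ranged over 64.3 to 108.1 and WT ESC over 110.6 to 169.4. Its EB minus ESC log2 difference was 0.42 ± 0.24 in TKO and -0.73 ± 0.27 in WT, and in the fit over all probe sets this WT difference passed, opposite in sign to the 1.26 above. Of the 9 H2-D1 probe sets, 5 did not pass the filter on low values and lay under the floor on all or all but 1 of the arrays. Over all members, 17 of 25 probe sets passed, and each of the 8 genes had at least 1 that did.

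**Figure D2:**
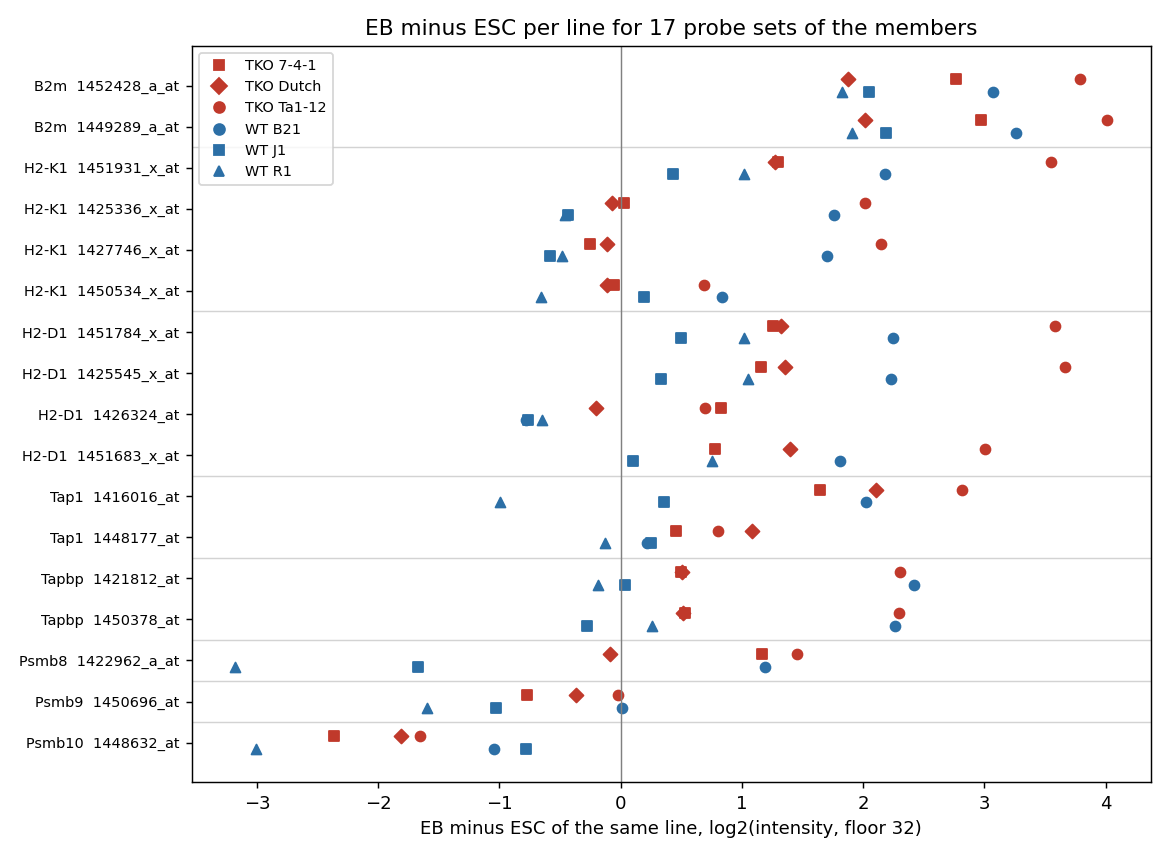
EB minus ESC of the same line, in log2(intensity) with a floor of 32, for the 17 probe sets of the members that passed the filter; each point is 1 line, red for the 3 TKO lines and blue for the 3 WT lines measured at both stages. Both B2m probe sets lie right of 0 in all 6 lines and Psmb10 lies left of 0 in all 6, while the H2-K1 probe sets divide.

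Tap1, a chain of the peptide transporter, was higher as EB in all 3 TKO lines and varied among the WT lines. It had 242.6, 383.0, 204.1, 271.3 and 355.5 in TKO EB 2-55-2, 14-14-4, 7-4-1, Dutch and Ta1-12, and 65.4, 62.9 and 50.4 in TKO ESC 7-4-1, Dutch and Ta1-12, so these groups did not overlap. WT EB had 305.3, 316.7 and 166.1, and WT ESC had 75.0, 247.0 and 330.1, in B21, J1 and R1. By line, EB minus ESC was 1.64 (7-4-1), 2.11 (Dutch), 2.82 (Ta1-12), 2.02 (B21), 0.36 (J1) and -0.99 (R1), so B21 lay among the TKO lines and R1 was lower as EB. On the log2 scale EB minus ESC was 2.26 ± 0.42 in TKO and 0.46 ± 0.47 in WT. Leaving out WT ESC B21, whose 75.0 is near the TKO ESC values, turned the WT difference to -0.18. TKO minus WT was 0.17 ± 0.42 in EB and -1.63 ± 0.47 in ESC. A second, dimmer probe set, 1448177_at, gave EB minus ESC of 1.02 ± 0.30 in TKO and 0.11 ± 0.33 in WT, and the other 2 stayed under the floor.

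Tapbp, the loading factor tapasin, was clearly higher as EB only in the lines Ta1-12 and B21. It had 830.6, 1241.2, 915.8, 1153.8 and 2580.9 in TKO EB 2-55-2, 14-14-4, 7-4-1, Dutch and Ta1-12, and 648.3, 813.9 and 521.9 in TKO ESC 7-4-1, Dutch and Ta1-12. WT EB had 2976.1, 1551.6 and 2231.7, and WT ESC had 555.2, 1511.9 and 2533.5, in B21, J1 and R1. The lowest TKO EB (830.6) lay just above the highest TKO ESC (813.9), and the WT stages overlapped. The EB minus ESC log2 differences were 0.92 ± 0.46 in TKO and 0.76 ± 0.51 in WT on this probe set, and 0.99 ± 0.45 and 0.75 ± 0.50 on the other. Without WT ESC B21 the WT value was 0.15, and it ranged up to 1.25 when other single arrays were left out. The lines Ta1-12 (2.31) and B21 (2.42) were far above 7-4-1 (0.50), Dutch (0.50), J1 (0.04) and R1 (-0.18), and without line Ta1-12 the TKO difference was 0.49.

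The 3 immunoproteasome genes differed from each other. Psmb10, which replaces the constitutive subunit of Psmb7, was lower in every EB than in every ESC. It had 439.2, 378.5, 357.0, 497.6 and 509.2 in TKO EB 2-55-2, 14-14-4, 7-4-1, Dutch and Ta1-12, against 1841.4, 1742.1 and 1599.0 in TKO ESC 7-4-1, Dutch and Ta1-12. WT EB had 903.9, 859.3 and 306.3 and WT ESC had 1861.0, 1471.8 and 2458.5 in B21, J1 and R1. The EB minus ESC log2 difference was -2.0 ± 0.31 in TKO and -1.61 ± 0.35 in WT, and without WT EB R1 the WT value was -1.10. TKO minus WT was -0.52 ± 0.31 in EB, or -1.03 without WT EB R1, and -0.13 ± 0.35 in ESC.

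Psmb9, which replaces Psmb6 and shares its upstream DNA with Tap1 as printed above, was above the floor on all 14 arrays, between 98.4 and 313.6. It had 100.7, 142.8, 98.4, 138.6 and 135.3 in TKO EB 2-55-2, 14-14-4, 7-4-1, Dutch and Ta1-12, and 168.2, 178.8 and 137.5 in TKO ESC 7-4-1, Dutch and Ta1-12. WT EB had 167.0, 130.7 and 103.9 and WT ESC had 165.8, 267.0 and 313.6 in B21, J1 and R1. On the log2 scale EB minus ESC was -0.40 ± 0.25 in TKO and -0.87 ± 0.28 in WT. By line it was -0.77 (7-4-1), -0.37 (Dutch), -0.02 (Ta1-12), 0.01 (B21), -1.03 (J1) and -1.59 (R1). R1 was thus lower as EB for Tap1 and Psmb9 alike, and J1, 7-4-1 and Dutch were higher for Tap1 and lower for Psmb9. Ta1-12 and B21 were higher for Tap1 and near 0 for Psmb9.

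Psmb8, which replaces Psmb5, was highest in ESC of the WT lines J1 and R1. It had 81.6, 86.6, 71.8, 37.4 and 87.6 in TKO EB 2-55-2, 14-14-4, 7-4-1, Dutch and Ta1-12, and 15.8, 39.7 and 13.9 in TKO ESC 7-4-1, Dutch and Ta1-12, of which 7-4-1 and Ta1-12 lay under the floor. WT EB had 151.8, 116.7 and 82.7 and WT ESC had 66.7, 371.6 and 747.6 in B21, J1 and R1. The EB minus ESC log2 difference was 1.02 ± 0.59 in TKO and -1.22 ± 0.66 in WT, and without WT ESC B21 the WT value was -2.21. TKO minus WT was -0.70 ± 0.59 in EB and -2.94 ± 0.66 in ESC. Since TKO ESC lie at the floor these values depend on it: the TKO difference was 1.69 with a floor of 16 and 0.28 with a floor of 64, and the difference between ESC was -3.61 and -2.05.

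The constitutive subunits had differences of smaller size. Psmb7 had EB minus ESC log2 differences of 0.07 ± 0.09 in TKO and -0.08 ± 0.10 in WT (adjusted p = 0.562 and 0.497, limma over all genes), and Psmb6 had -0.11 ± 0.14 and -0.13 ± 0.15 (adjusted p = 0.575 and 0.513). Psmb5 fell in TKO (-0.31 ± 0.09 on the log2 scale, adjusted p = 0.0132) and had -0.21 ± 0.10 in WT (adjusted p = 0.0948). With the line as a block the TKO call of Psmb5 was lost (adjusted p = 0.0549), as it was without line Ta1-12 and without TKO ESC 7-4-1. The activator subunit Psme1 had 0.21 ± 0.18 and 0.14 ± 0.20 (adjusted p = 0.395 and 0.58). Other activators fell with limma. Psme3 had -0.86 ± 0.24 in TKO and -0.76 ± 0.27 in WT (adjusted p = 0.0142 and 0.0356). Psme4 had -0.55 ± 0.16 and -0.70 ± 0.18 (adjusted p = 0.019 and 0.00835). With the line as a block both calls of Psme3 were lost (adjusted p = 0.0555 and 0.0645) and those of Psme4 stayed.

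**Figure D3:**
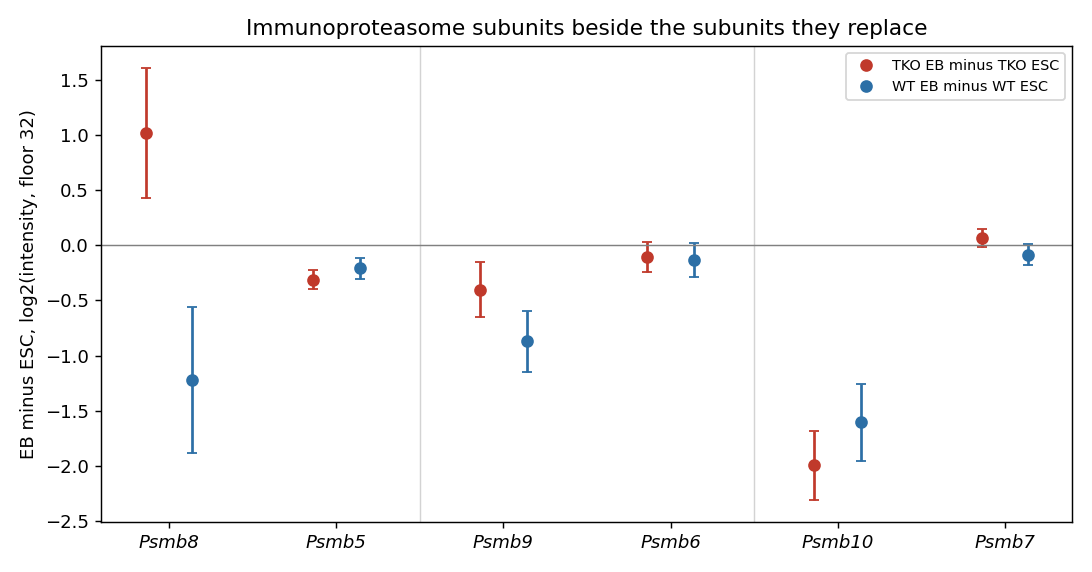
EB minus ESC log2 difference of each immunoproteasome subunit beside the constitutive subunit it replaces, with its standard error from limma (n = 5 and 3 arrays for TKO in red, 3 and 3 for WT in blue). Psmb10 lies at -2.0 and -1.61 while Psmb7 lies at 0.07 and -0.08.

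The WT ESC lines were not alike. For B2m, H2-K1, H2-D1, Tap1, Tapbp, Psmb8 and Psmb9, ESC J1 and R1 were above ESC B21, and R1 was the highest ESC of all. ESC B21 lay between J1 and the TKO ESC for B2m, H2-K1, H2-D1, Tap1 and Psmb8, and within the TKO ESC for Tapbp and Psmb9. For Psmb8 ESC R1 had 747.6 where ESC B21 had 66.7. For Psmb10 the order was different, with J1 (1471.8) the lowest ESC. On the probe set standing for each gene, TKO ESC were under WT ESC without overlap for 5 of 8 members, where 11.5% of 14365 genes did not overlap (4.64% higher, 6.84% lower). The 5 were B2m, H2-K1, H2-D1, Tap1 and Psmb8, and the signals of H2-K1 and H2-D1 cannot be told apart. B2m and H2-D1 stayed apart on their other probe sets that passed the filter. H2-K1 overlapped on all its other probe sets. These were 1425336_x_at (TKO ESC 474.5 to 905.3, WT ESC 758.3 to 2375.0), 1427746_x_at (188.8 to 415.2 and 349.5 to 1061.5) and 1450534_x_at (74.2 to 98.9 and 67.3 to 198.7). Tap1 overlapped on 1448177_at, where WT ESC B21 (12.6) was under the floor like the TKO ESC.

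The EB lines also differed. TKO EB Ta1-12 had the highest TKO EB value for B2m, H2-K1, H2-D1, Tapbp, Psmb8 and Psmb10, and lay within the WT EB range for B2m, Tapbp, Psmb8 and Psmb10 and above it for H2-K1 and H2-D1. TKO EB Dutch had the lowest B2m and Psmb8. Pou5f1, a factor of undifferentiated cells, had 1542.2, 6132.8, 146.8, 7410.3 and 17.1 in TKO EB 2-55-2, 14-14-4, 7-4-1, Dutch and Ta1-12, and 32.8 to 55.2 in WT EB. Dutch had the most Pou5f1 and the least B2m of the TKO EB, and Ta1-12 the least Pou5f1 and the most B2m. The TKO EB between them did not follow this order. There 14-14-4, with the most Pou5f1 (6132.8), also had the most B2m (7575.3), above 2-55-2 (6509.6) and 7-4-1 (6150.4). Without TKO EB Dutch and 14-14-4, 5 of 8 members passed in TKO EB versus TKO ESC, beside 45.0% of all genes. The part of undifferentiated cells in these values was not tested.

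Blood cell markers as a sum were higher in EB than in ESC, though only slightly in TKO EB Dutch (1827.5) and 7-4-1 (2062.3). Of 15 haematopoietic markers 14 had a probe set, and their summed intensity was 1827.5 to 13484.3 in TKO EB and 12639.5 to 25221.1 in WT EB, against 1500.6 to 1662.8 in TKO ESC and 1391.1 to 1690.9 in WT ESC. Of 12 tested with limma, 9 rose in WT and 6 in TKO and 0 fell, beside 43.6% and 35.7% of all genes passing. All TKO EB lay above all TKO ESC for 2 of the 12, beside 21.1% of all genes. Coro1a (49.6 to 462.7 in TKO EB, 273.0 to 286.0 in TKO ESC) and Laptm5 (180.8 to 2068.4 and 393.8 to 677.6) overlapped. Ptprc (CD45), which marks leukocytes, was under the floor in all ESC and in TKO EB Dutch (9.6), and was 56.9 to 315.1 in the other TKO EB and 254.9 to 588.1 in WT EB. Csf1r, a receptor of macrophages, was 214.1 to 3118.5 in TKO EB (452.2 in Dutch) and 1289.6 to 5185.5 in WT EB, against 30.8 to 56.4 in TKO ESC and 30.8 to 43.7 in WT ESC. The summed level of 8 fibroblast markers was 26627.7 to 110083.9 in TKO EB and 91141.3 to 105429.9 in WT EB, against 529.6 to 752.1 in TKO ESC and 718.9 to 1016.3 in WT ESC. Of 7 endothelial markers the sum was 1222.9 to 5802.6 in TKO EB and 2127.7 to 4314.4 in WT EB, against 1241.0 to 2028.0 in TKO ESC and 1029.9 to 2419.1 in WT ESC. That sum joins markers of unlike direction. Between the WT stages Cdh5 (5.15), Kdr (2.39) and Emcn (1.86) rose on the log2 scale with limma. Pecam1 (-2.85), Eng (-0.70) and Tek (0.22) did not pass. MHC class II genes with Cd74 and Ciita (6 of 7 with a probe set) summed to 416.7 to 1487.0 in TKO EB and 706.2 to 1239.4 in WT EB, against 436.7 to 592.1 in TKO ESC and 686.1 to 934.9 in WT ESC. The part of these cell types in the class I values was not tested. In such mixed cultures more cells of a type and more RNA per cell cannot be told apart.

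By the limma fit over all genes, 5 of 8 members passed an adjusted p of 0.05 in TKO EB versus TKO ESC, 4 higher (B2m, H2-K1, H2-D1 and Tap1) and 1 lower (Psmb10), where 35.7% of 14365 genes passed, 20.8% higher and 14.9% lower. In WT EB versus WT ESC 3 of 8 passed, with B2m higher and Psmb9 and Psmb10 lower, where 43.6% of all genes passed, 26.2% higher and 17.4% lower. Without line Ta1-12, and likewise without TKO EB Ta1-12 alone, 5 of 8 passed between the WT stages (3 members were higher in EB, 2 lower), beside 45.1% and 47.2% of all genes, since all arrays share 1 estimate of the spread. The EB and ESC arrays did not overlap for 5 members higher and 1 lower in TKO, beside 35.7% of all genes (21.1% higher, 14.6% lower), and for 1 higher and 1 lower in WT, beside 60.2% (35.1% higher, 25.2% lower). These counts only describe members picked with such values known. The median log2 difference of the 8 members was 1.48 in TKO and 0.61 in WT, beside 0.08 and 0.13 over all genes. Each group serves in these comparisons and again in those between genotypes.

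Between genotypes no member passed. In TKO EB versus WT EB 0 of 8 members and 0.0% of all genes passed with limma, and 0 members and 2034 of 14365 genes had an unadjusted p under 0.05. No member separated TKO EB from WT EB without overlap, beside 3.88% of all genes (0.835% higher, 3.05% lower). In TKO ESC versus WT ESC 0 of 8 and 0.0% passed, and 5 members and 394 of 14365 genes had an unadjusted p under 0.05. Leaving out WT ESC B21, 1 of 8 members passed there and 5 genes in all. Without line Ta1-12, 1101 genes passed in TKO EB versus WT EB, and still 0 of 8 members. For the difference of the EB versus ESC changes between TKO and WT 0 of 8 and 0.0% passed, and 2 members and 522 of 14365 genes had an unadjusted p under 0.05. The median log2 difference of the members was -0.64 in EB and -1.27 in ESC, beside -0.10 and -0.02 over all genes. The members were picked with such values known, so their counts between genotypes only describe them and are no test of a genotype effect.

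Other genes of the class I pathway were taken from a list of 42, of which 34 had a probe set of their own and 33 were tested. In TKO EB versus TKO ESC 6 rose and 3 fell, 27.3% of those tested, beside 35.7% of all genes. With the line as a block 4 rose and 1 fell, without line Ta1-12 2 rose and 2 fell, and without TKO ESC 7-4-1, Dutch or Ta1-12 alone 5, 6 and 5 passed. The count over all genes moved too. It was 3148 with the block and 3068 without line Ta1-12, against 5132 of 14365, and 3559 to 6233 when 1 array was left out. Between WT EB and WT ESC 8 rose and 4 fell, 36.4% of those tested, beside 43.6% of all genes. The median log2 difference was 0.17 in TKO and -0.06 in WT. In TKO EB versus WT EB, in TKO ESC versus WT ESC and for the difference of the changes 0 of 33 passed with limma, and 3, 4 and 0 had an unadjusted p under 0.05.

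Among these, Calr, Pdia3 and Hspa5 rose in both genotypes, and the chaperone genes Canx and Pdia4 did not pass. Calreticulin, Calr, which holds the heavy chain before loading, rose by 0.53 ± 0.10 in TKO (adjusted p = 0.00234) and 0.84 ± 0.12 in WT (adjusted p = 3.40e-04). The oxidoreductase of the loading complex, Pdia3, rose by 0.84 ± 0.18 in TKO (adjusted p = 0.00356) and 1.16 ± 0.20 in WT (adjusted p = 0.00102). Hspa5, a general chaperone, rose by 0.55 ± 0.15 (adjusted p = 0.0142) and 0.72 ± 0.17 (adjusted p = 0.0053), and the TKO call was lost without line Ta1-12 and without TKO ESC Dutch or Ta1-12. Calnexin, Canx, had 0.27 ± 0.11 in TKO and 0.27 ± 0.13 in WT (adjusted p = 0.0811 and 0.104), and Pdia4 had 0.38 ± 0.29 and 0.70 ± 0.32 (adjusted p = 0.319 and 0.0919). The class I-like genes Mr1, which presents vitamin metabolites, and Hfe, of iron control, rose by 1.82 ± 0.48 (adjusted p = 0.0113) and 0.80 ± 0.25 (adjusted p = 0.0263) in TKO and by 3.09 ± 0.54 (adjusted p = 0.00107) and 1.37 ± 0.28 (adjusted p = 0.00268) in WT. The TKO call of Mr1 was lost without line Ta1-12 and without TKO ESC Ta1-12, and that of Hfe with the line as a block (adjusted p = 0.138). Fcgrt, also class I-like, rose by 3.11 ± 0.68 in WT (limma adjusted p = 0.00357) and had 1.63 ± 0.61 in TKO (adjusted p = 0.053). Nlrc5, the transactivator of class I genes, fell in WT (-0.91 ± 0.32 on the log2 scale, adjusted p = 0.0362) and had -0.62 ± 0.29 in TKO (adjusted p = 0.112). Its intensity was only 18.9 to 76.3 in TKO EB and 39.4 to 61.8 in WT EB, against 76.1 to 103.7 in TKO ESC and 76.5 to 114.0 in WT ESC, and the WT call was lost with the line as a block (adjusted p = 0.0725), with a floor of 16, with 16 added to each value, and without WT EB B21, WT EB J1, WT ESC J1 or WT ESC R1.

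**Figure D4:**
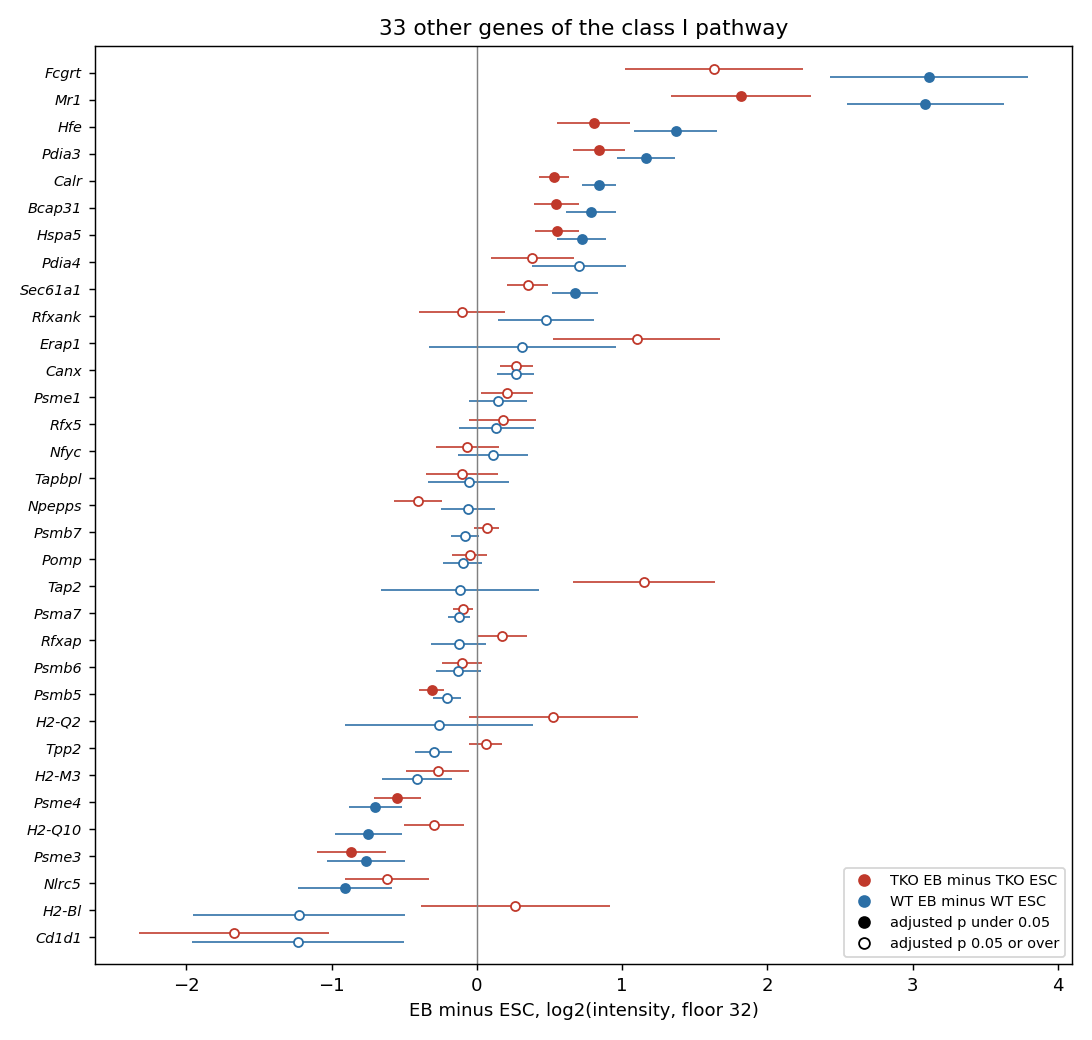
EB minus ESC log2 difference with its standard error for the 33 tested genes of the class I pathway list, TKO in red and WT in blue, filled where the limma adjusted p was under 0.05. The chaperones Calr, Pdia3 and Hspa5 lie right of 0 in both genotypes and are filled in both, and the constitutive subunits Psmb6 and Psmb7 lie near 0.

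Tap2, the partner chain of Tap1, and the trimming peptidase Erap1 had EB minus ESC differences of 1.15 ± 0.49 and 1.10 ± 0.58 in TKO (adjusted p = 0.0836 and 0.154) and -0.12 ± 0.55 and 0.31 ± 0.64 in WT (adjusted p = 0.877 and 0.715). Among the WT ESC their intensities had the order of lines seen for 7 of the members. Tap2 had 59.3, 43.6 and 37.5 in TKO ESC 7-4-1, Dutch and Ta1-12, against 46.6, 186.8 and 230.7 in WT ESC B21, J1 and R1. Erap1 had 32.2, 31.8 and 33.8 in the same TKO ESC, against 37.2, 141.5 and 242.4 in the same WT ESC. WT ESC B21 was thus close to TKO ESC for both genes, and J1 and R1 stood above. Tapbpl, a relative of tapasin, had -0.11 ± 0.25 in TKO and -0.06 ± 0.28 in WT (adjusted p = 0.765 and 0.88), and the class Ib gene H2-M3 had -0.27 ± 0.22 and -0.41 ± 0.24 (adjusted p = 0.348 and 0.18). Another heavy chain gene, H2-Q10, fell in WT (-0.75 ± 0.23 on the log2 scale, limma adjusted p = 0.0201) and had -0.29 ± 0.21 in TKO (adjusted p = 0.288). With the line as a block its WT call was lost (adjusted p = 0.0693). H2-Q2 and H2-Bl did not pass in either genotype.

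Interferon is a known inducer of the members, and of 44 listed genes of interferon sensing and response 40 were tested. In TKO EB versus TKO ESC 15 rose and 3 fell, 45.0% of those tested beside 35.7% of all genes, and between WT EB and WT ESC 17 rose and 4 fell, 52.5% beside 43.6%. Leaving out 1 array at a time, the WT count ranged from 12 (without WT ESC B21) to 22. The count over all genes also moved, from 4589 to 6776 of 14365. The receptor chains Ifngr1 and Ifngr2 rose by 2.52 ± 0.46 and 2.74 ± 0.44 in TKO (adjusted p = 0.00149 and 7.55e-04) and by 2.79 ± 0.51 and 3.03 ± 0.50 in WT (adjusted p = 0.00142 and 7.82e-04). The receptor kinase Jak2 rose by 2.42 ± 0.38 in TKO and 2.12 ± 0.42 in WT (adjusted p = 6.16e-04 and 0.0022). The transcription factor Irf2 rose by 1.36 ± 0.37 and 2.04 ± 0.41 (adjusted p = 0.0125 and 0.00226), though it was under or near the floor in all ESC, and with a floor of 64 the TKO call was lost. Of the interferon-inducible genes, Usp18 rose by 2.61 ± 0.47 in TKO and 1.92 ± 0.52 in WT (limma adjusted p = 0.00141 and 0.0111). Iigp1 rose by 2.54 ± 0.50 and 2.65 ± 0.56 (adjusted p = 0.00237 and 0.00292). Mx1 (0.21 and 0.11) and Rsad2 (0.33 and 0.27) did not pass in either genotype. Irf1, an activator of class I genes, fell in WT (-1.33 ± 0.40 on the log2 scale, adjusted p = 0.0181) and had -0.66 ± 0.36 in TKO (adjusted p = 0.171). The WT call of Irf1 was lost with the line as a block (adjusted p = 0.0702) and without WT EB R1 or WT ESC R1. In the 3 other comparisons 0 of 40 passed with limma, and 8 (TKO EB versus WT EB), 4 (TKO ESC versus WT ESC) and 4 (difference of the changes) had an unadjusted p under 0.05.

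The genes most like the members were sought by Pearson's r with the mean of the 8 members' standardised log2 values. Over the 8 EB arrays these were Ptprj (r = 0.987), Ptpn18 (0.986), Lrch4 (0.981), Ahr (0.981), Gas6 (0.97), Ece1 (0.969), Sh3glb2 (0.969) and Serinc3 (0.965). The r of the members themselves was 0.541 (Tap1) to 0.902 (Tapbp). Each member is part of that mean, on either set of arrays, which raises its r. H2-K1 and H2-D1, whose signals cannot be told apart, both enter the mean. Gas6, a ligand of TAM receptor kinases, had 3131.6, 6627.3, 2846.3, 2236.4 and 10032.2 in TKO EB 2-55-2, 14-14-4, 7-4-1, Dutch and Ta1-12, against 13351.0, 7020.3 and 5074.2 in WT EB B21, J1 and R1. Over all 14 arrays, which also share the split between stages, Erap1 came first (r = 0.924), followed by Efr3a (0.914), Pik3c2a (0.909), Prr5l (0.908) and Sema3e (0.892), and members had -0.135 (Psmb10) to 0.943 (Tapbp). These values are descriptions over few arrays that share lines and the makeup of the cultures.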

How the data were processed

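Per the labels' protocols, Trizol was used to extract total RNA, which was labelled for Affymetrix arrays. The deposited table gives 1 linear intensity per probe set for 14 arrays and 45101 probe sets, already summarised by the authors; the sources used here give no method for background, scaling or summary, and the scale of the deposited intensity values is known only from the values (0.596 to 25701.643). The number of arrays limits the precision.

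Values under 32 were raised to 32 and log2 was taken. Of the probe sets 34958 had 1 gene symbol in GEO's platform annotation, 932 several and 9211 none; those with several, 3 of them with a member's symbol, were not used. Symbols were checked by Entrez identifier against a RefSeq table of GRCm38.p6 (34754 matched, 0 changed). The probe set with the highest mean log2 value stood for a gene, and 14365 genes above the 40th percentile of the array on at least 3 arrays were tested. Groups came from the sample titles. limma 3.58.1 in R 4.3.3 was fitted with 1 mean per group over all arrays (eBayes with trend), with Benjamini-Hochberg adjustment over all genes and a threshold of 0.05. Errors are standard errors of this fit. A second fit over 26328 probe sets gave errors for the other probe sets of the members. The fit was tested on simulated data.

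The members and gene lists were chosen with earlier results of these data known. Genes named beside the members were up to 6 per list and comparison with the smallest adjusted p, of which some are given, and others fixed by name. Pdia4, Psme4, H2-Q10, H2-Q2, H2-Bl, Mx1 and Rsad2 were named in addition. Of the names fixed, Psme2 and H2-T23 had no probe set of their own, and 1 item is not reported here. ESC and EB of a line come from the same cell line, which pairs them; their deviations from the group mean correlated at -0.046 (B21), -0.0776 (J1), -0.0369 (R1), 0.0664 (7-4-1), 0.196 (Dutch) and 0.0903 (Ta1-12). The line was tried as a block, as were other floors, no filter, quantile normalization, all probe sets, group weights and leaving out arrays. Motifs were searched in RefSeq promoter windows with Python 3.11.15. Protein sequences were not used here.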

Additional observations from a re-analysis of the deposited data

Results flagged for a closer look

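In TKO EB, Psmb8 of line Dutch had an intensity of 37.4, against 71.8 to 87.6 in the other 4 TKO EB, and its gap to the nearest array was 0.765 of the group's range, above the critical value of 0.71 for 5 arrays. The value lies near the floor of 32. Such a test was made for 22 genes, and chance alone gives about 1 in 20.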

How the results depend on the processing

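On the probe set that stands for each gene, the alternatives that were run kept the direction of the members' differences that passed; with all probe sets 4 members passed between the WT stages (1 was higher in EB, 3 lower), the added one being H2-D1 on 1426324_at. Of the small differences given for members that did not pass, Tap1 in TKO EB versus WT EB was -0.13 without WT EB R1 and Psmb10 in TKO ESC versus WT ESC was 0.06 without WT ESC R1. With the line as a replicate block, 5 of the other class I pathway genes and 3148 of all genes passed in TKO EB versus TKO ESC, against 9 and 5132, and beyond the gene calls given above it changed no count of a list by over 1.5 times. Without line Ta1-12, 5 members passed in WT EB versus WT ESC, against 3; 4 other class I pathway genes and 3068 of all genes passed in TKO EB versus TKO ESC; 1 class I pathway gene, 3 interferon response genes and 1101 of all genes passed in TKO EB versus WT EB; and 5 genes passed for the difference of the changes. Group array weights gave 5 members in WT EB versus WT ESC. With these weights and with all probe sets, the count over all genes in WT EB versus WT ESC changed by no more than 1.5 times from 6260 (43.6% of 14365). A floor of 64 gave 8 genes in TKO EB versus WT EB, 1 gene in TKO ESC versus WT ESC and a Psmb8 difference of -2.05 between these ESC, and no filter gave 2 genes in TKO ESC versus WT ESC and 1 for the difference of the changes. Leaving out 1 array at a time, the members passing ranged from 2 to 5 in WT EB versus WT ESC and from 0 to 1 in TKO ESC versus WT ESC. The other class I pathway genes ranged from 5 to 13 in TKO EB versus TKO ESC and from 0 to 1 in TKO EB versus WT EB, and the interferon response genes from 12 to 22 in WT EB versus WT ESC, from 0 to 6 in TKO EB versus WT EB and from 0 to 1 in TKO ESC versus WT ESC. All genes ranged from 4589 to 6776 in WT EB versus WT ESC and from 3559 to 6233 in TKO EB versus TKO ESC. They ranged from 0 to 1422 in TKO EB versus WT EB (highest without TKO EB Ta1-12), from 0 to 5 in TKO ESC versus WT ESC and from 0 to 26 for the difference of the changes. Tap1 ranged from -0.18 to 0.89 in WT EB versus WT ESC, from -2.27 to -1.20 in TKO ESC versus WT ESC and from 1.37 to 2.44 for the difference of the changes. Psmb8 ranged from -2.21 to -0.47, from -3.94 to -2.19 and from 1.49 to 3.24 in the same order. Psmb10 ranged from -1.88 to -1.10 in WT EB versus WT ESC, from -1.03 to -0.25 in TKO EB versus WT EB and from -0.90 to -0.12 for the difference of the changes. The cause of these shifts was not tested. Dim probe sets such as Psmb8 in ESC are limited by the floor.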

Other observations

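Among interferon-inducible genes, the guanylate-binding proteins Gbp2 and Gbp3, which were picked after their values were seen, had the same order of WT ESC lines as Psmb8. Gbp2 had 113.4, 205.7 and 152.4 in TKO ESC 7-4-1, Dutch and Ta1-12, against 201.5, 1020.1 and 2625.0 in WT ESC B21, J1 and R1. Gbp3 had 63.4, 101.7 and 39.0 in the same TKO ESC, against 94.6, 395.7 and 1088.3 in the same WT ESC. In both genes WT ESC B21 lay within the range of the TKO ESC. Gbp2 fell in WT EB against WT ESC (-2.29 ± 0.67 on the log2 scale, limma adjusted p = 0.016) and had 0.03 ± 0.60 in TKO (adjusted p = 0.971).

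The RNA sensor gene Ddx58 and the signalling inhibitor Socs3, also picked after their values were seen, had their highest ESC values in TKO lines. Ddx58 fell in TKO EB against TKO ESC (-1.41 ± 0.17 on the log2 scale, limma adjusted p = 1.20e-04) and had -0.31 ± 0.19 in WT (adjusted p = 0.199), and the difference between these changes did not pass (adjusted p = 0.975). Its intensity was 1252.3, 1284.5 and 1496.3 in TKO ESC 7-4-1, Dutch and Ta1-12, against 748.0, 769.5 and 754.8 in WT ESC B21, J1 and R1, without overlap, and this difference did not pass either. Socs3 had 4917.5, 5625.6 and 4840.2 in the same TKO ESC, against 4917.3, 1372.3 and 2006.5 in the same WT ESC, where WT ESC B21 was again at the TKO level.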
